A study of Mus musculus with 212 samples.

Results

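The genes described here carry out the unfolded protein response of the endoplasmic reticulum and the integrated stress response. They were 32 listed genes, chosen by symbol through their Ensembl identifiers, and kept where their mean over the libraries used was at least 1 FPKM (read fragments counted per kilobase of transcript and scaled to library depth). The list was drawn up with earlier results of these data known. The limit kept 31 of the 32, among 13164 genes of the whole table of 47631 that passed it. Atf3, a transcription factor induced by stress, had a mean of 0.737 FPKM (0.09995 to 2.84 FPKM over the libraries) and was not tested. The kept genes were 11 chaperones and co-chaperones, 4 protein disulfide isomerases, 4 genes of endoplasmic reticulum-associated degradation, 7 sensors and transcription factors, and 5 targets of the transcription factors ATF4 and CHOP.

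Skin fibroblasts from C57BL/6 mice, either wild type (WT) or lacking the core clock gene Bmal1 (Bmal1-/-), were followed by poly(A) RNA sequencing. All groups shared confluence, a pulse of 100 nM dexamethasone lasting 15 min, which sets the clocks of cultured cells to one phase, a HEPES-buffered medium, and a first harvest 48 h later. Each genotype had 1 course named AM and 1 named PM, with 17 libraries every 3 h from CT0 to CT48, and 1 course each at 37, 32 and 27 °C, with 24 libraries every 2 h from CT0 to CT46. CT is the time label in hours, and the meaning of the names AM and PM is not stated. The labels name 3 wells per time point and genotype but give neither the number of animals or cell preparations nor whether wells were pooled. Every time point had 1 library, so the p-values below measure the spread between the libraries of a course, not between preparations. Temperature and genotype cannot be told apart from the cells and cultures behind each course.

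When unfolded proteins build up in the endoplasmic reticulum, the sensors IRE1 (Ern1), PERK (Eif2ak3) and ATF6 signal to the nucleus. IRE1 splices the mRNA of Xbp1, ATF6 is cleaved into a transcription factor, and both raise the chaperones that fold proteins and the machinery that removes them. PERK phosphorylates the initiation factor eIF2α, as do kinases that sense amino acid shortage, haem shortage or double-stranded RNA. That phosphorylation lowers protein synthesis while ATF4 is translated, and ATF4 then drives amino acid synthesis and transport together with CHOP (Ddit3). Fibroblasts secrete collagen and keep a large folding capacity.

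Promoters of genes of both branches are shown as examples of the elements that the 2 branches are known to act through. Each sequence is the 250 bases before the RefSeq start site in GRCm38.p6, on the gene's own strand. The chaperone genes Hspa5 (chr2:34771840-34772089, plus strand) and Hsp90b1 (chr10:86705445-86705694, minus strand) carry the endoplasmic reticulum stress element in capitals, which Hsp90b1 has on both strands. Herpud1 (chr8:94386179-94386428, plus strand) carries the second form of that element and the core of the C/EBP-ATF response element. The ATF4 targets Chac1 (chr2:119350992-119351241, plus strand) and Asns (chr6:7693210-7693459, minus strand) carry the C/EBP-ATF core in capitals, reading in the reverse direction in Herpud1 and Chac1.
Hspa5: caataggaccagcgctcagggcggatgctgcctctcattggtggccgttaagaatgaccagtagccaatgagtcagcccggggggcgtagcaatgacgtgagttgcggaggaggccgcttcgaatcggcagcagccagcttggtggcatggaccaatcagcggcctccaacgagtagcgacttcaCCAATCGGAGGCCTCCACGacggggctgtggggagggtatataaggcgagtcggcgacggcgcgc
Hsp90b1: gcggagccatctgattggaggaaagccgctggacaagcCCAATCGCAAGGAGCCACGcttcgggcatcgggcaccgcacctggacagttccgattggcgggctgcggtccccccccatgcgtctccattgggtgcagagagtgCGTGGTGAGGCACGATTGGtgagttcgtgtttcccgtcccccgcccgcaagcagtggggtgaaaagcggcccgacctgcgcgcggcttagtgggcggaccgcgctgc
Herpud1: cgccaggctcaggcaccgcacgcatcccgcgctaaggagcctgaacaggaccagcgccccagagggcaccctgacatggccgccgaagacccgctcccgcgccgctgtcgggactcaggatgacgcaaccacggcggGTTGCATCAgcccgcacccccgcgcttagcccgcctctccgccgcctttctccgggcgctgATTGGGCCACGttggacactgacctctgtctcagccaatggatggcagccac
Chac1: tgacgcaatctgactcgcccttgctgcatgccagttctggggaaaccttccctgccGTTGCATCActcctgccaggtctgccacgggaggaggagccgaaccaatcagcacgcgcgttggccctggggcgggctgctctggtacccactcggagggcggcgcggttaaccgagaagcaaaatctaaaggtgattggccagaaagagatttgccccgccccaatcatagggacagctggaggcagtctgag
Asns: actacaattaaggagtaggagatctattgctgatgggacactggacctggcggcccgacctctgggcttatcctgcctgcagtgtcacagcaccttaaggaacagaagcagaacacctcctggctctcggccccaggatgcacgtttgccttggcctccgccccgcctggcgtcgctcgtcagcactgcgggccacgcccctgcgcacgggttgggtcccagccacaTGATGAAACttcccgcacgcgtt
Motifs were searched on both strands from 250 bases before to 50 bases after the start site, in the 29 listed genes with a promoter in the RefSeq table and in all 32851 promoters of that table. The endoplasmic reticulum stress element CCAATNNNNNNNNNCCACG was in 8 of the 29 (Hspa5, Hsp90b1, Calr, Canx, Dnajc3, Creld2, Pdia6 and Syvn1) and in 0.119% of all promoters. Its last bases, CCACG, were by themselves in 23 of the 29 and in 32.8% of all promoters. The second form, ATTGGNCCACG, which ends in the same bases and was added to the search later, was in Dnajb11 and Herpud1 and in 0.0365% of all promoters. The C/EBP-ATF core TGATGNAAN was in 5 of the 29 (Herpud1, Atf3, Trib3, Chac1 and Asns) and in 3.95% of all promoters. The core of the unfolded protein response element, TGACGTGG, was in 0 of the 29 genes and in 0.676% of all promoters. Counts among the 29 are per gene, with a match in any of its promoters, while the percentages are per promoter. These matches describe letters in a window and not binding.

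Estimated depth ran from 10.9 to 35.2 M (mega) reads per library (median 25.8 M), with the lowest in the WT library of AM at CT36. The labelled genotypes could not be checked on Bmal1 itself, because its transcript (Arntl) had a median of 7.38 FPKM in WT and 6.64 FPKM in Bmal1-/- in AM. Cdkn1a, which kept the genotypes apart in every other library (97.8 to 150.4 FPKM in Bmal1-/-, 1.08 to 7.12 FPKM in WT), was at 109.5 FPKM in the library labelled WT and 3.87 FPKM in the library labelled Bmal1-/- at CT14 of 27 °C. Those 2 libraries were left out, which leaves 210. All 10 fibroblast markers were detected in every course, and 0 of 4 muscle markers were. Of the other lists, 2 to 5 of 5 adipocyte markers were detected (summed level 21.8 to 257 FPKM), and at most 2 of the keratinocyte, endothelial, macrophage or pigment and Schwann cell markers. In bulk RNA, fewer cells of a type and less RNA per cell cannot be told apart.

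Between the genotypes in AM and PM, 3 targets of ATF4 were called lower in the Bmal1-/- cells. Trib3, Chac1 and Asns were called lower in Bmal1-/-, by 2.32-fold, 2.64-fold and 2.1-fold over both courses on the FPKM + 1 scale. A difference in level was called at an adjusted p under 0.05 by limma on log2(FPKM + 1) and at least 2-fold, in the same direction in AM and in PM. None of the 31 genes was called higher. Over all genes the same rule called 14.5%, with 7.53% lower and 7.01% higher, so the 3 genes of 31 are close to the background.

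Chac1 encodes an enzyme that degrades glutathione. Its WT libraries in AM lay at 7.60 to 14.02 FPKM (median 9.86) and those of Bmal1-/- at 1.44 to 4.33 FPKM (median 2.66). In PM the WT libraries lay at 5.64 to 9.03 FPKM (median 7.56) and the Bmal1-/- libraries at 1.82 to 4.15 FPKM (median 2.97). The ranges did not overlap in either course. The log2 difference, Bmal1-/- minus WT, was -1.40 ± 0.046 (SE, adjusted p = 2.08e-35).

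Trib3 encodes a pseudokinase that binds ATF4 and restrains it. In AM its WT libraries lay at 29.8 to 39.03 FPKM (median 35.1) and its Bmal1-/- libraries at 6.34 to 15.9 FPKM (median 10.4). In PM the ranges were 16.6 to 31.8 FPKM in WT (median 28.9) and 8.70 to 23.7 FPKM in Bmal1-/- (median 15.2). The genotypes were apart in AM and overlapped in PM, where the late WT libraries were low and the late Bmal1-/- libraries high. The log2 difference over both courses was -1.21 ± 0.045 (SE, adjusted p = 1.21e-32), made up of -1.66 in AM and -0.76 in PM.

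Asns, the enzyme that makes asparagine, lay at 95.6 to 139.7 FPKM in WT of AM (median 113) and at 27.1 to 54.3 FPKM in Bmal1-/- (median 42.1). In PM it lay at 53.8 to 102 FPKM in WT (median 80.6) and at 34.4 to 63.3 FPKM in Bmal1-/- (median 51.1). The genotypes again overlapped only in PM among these 2 courses. The log2 difference was -1.07 ± 0.045 (SE, adjusted p = 9.32e-30). Psat1, an enzyme of serine synthesis, was called lower in AM alone (-1.01; 4 members were called lower there, against 7.78% of all genes), and stood at -0.45 in PM. In PM by itself Chac1 was the 1 member called lower (8.23% of all genes). The fifth target was Ppp1r15a, which encodes the phosphatase subunit that reverses eIF2α phosphorylation, with a difference of -0.20 over both courses. All 5 targets were lower at an adjusted p under 0.05, with a median of -1.07, where 43.2% of all genes were lower by that test and the median over all genes was -0.000542.

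The sensors and transcription factors did not share a direction. Xbp1, the factor activated by IRE1, was at 33.02 to 42.2 FPKM in WT of AM (median 38.3) and at 53.9 to 72.0 FPKM in Bmal1-/- (median 65.1). It was at 36.03 to 43.4 FPKM (median 40.3) and 73.0 to 81.2 FPKM (median 78.0) in PM. Its ranges were apart in both courses, with a log2 difference of 0.85 ± 0.017 (SE, adjusted p = 5.58e-46), which is under 2-fold. Atf4, the central factor of the integrated stress response, was at a median of 223 FPKM in WT and 128 FPKM in Bmal1-/- in AM, and at 192 and 158 FPKM in PM. Its difference was -0.56, its ranges being apart in AM only of the 2 courses. Atf6 was at -0.74, Ern1 at -0.30 and Eif2ak3 at 0.56, none of them at 2-fold. For Ddit3, which encodes CHOP, the log2 difference was -0.21 in AM and 0.59 in PM.

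No gene of the folding machinery reached 2-fold. Among the chaperones the differences lay between -0.24 (Creld2) and 0.51 (Sdf2l1), and Hspa5, which encodes the main chaperone BiP, was at -0.10. Hsp90b1 was at -0.58 in AM and 0.34 in PM. P4hb, a protein disulfide isomerase and the most abundant of the genes at a mean of 1137 FPKM, was at 0.64 with its ranges apart in both courses. Herpud1, a component of the degradation complex, was at -0.72. The libraries of the genotypes did not overlap for 12 of the 31 genes in AM, where 34.1% of all genes did so, and for 8 in PM, against 35.5%. Markers of other cells moved with genotype too: of the adipocyte list, 3 of 3 tested genes were called higher in Bmal1-/- and 0 lower, and of the fibroblast list 1 of 10 was called higher and 3 lower. Their part in the result was not tested.

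**Figure D1:**
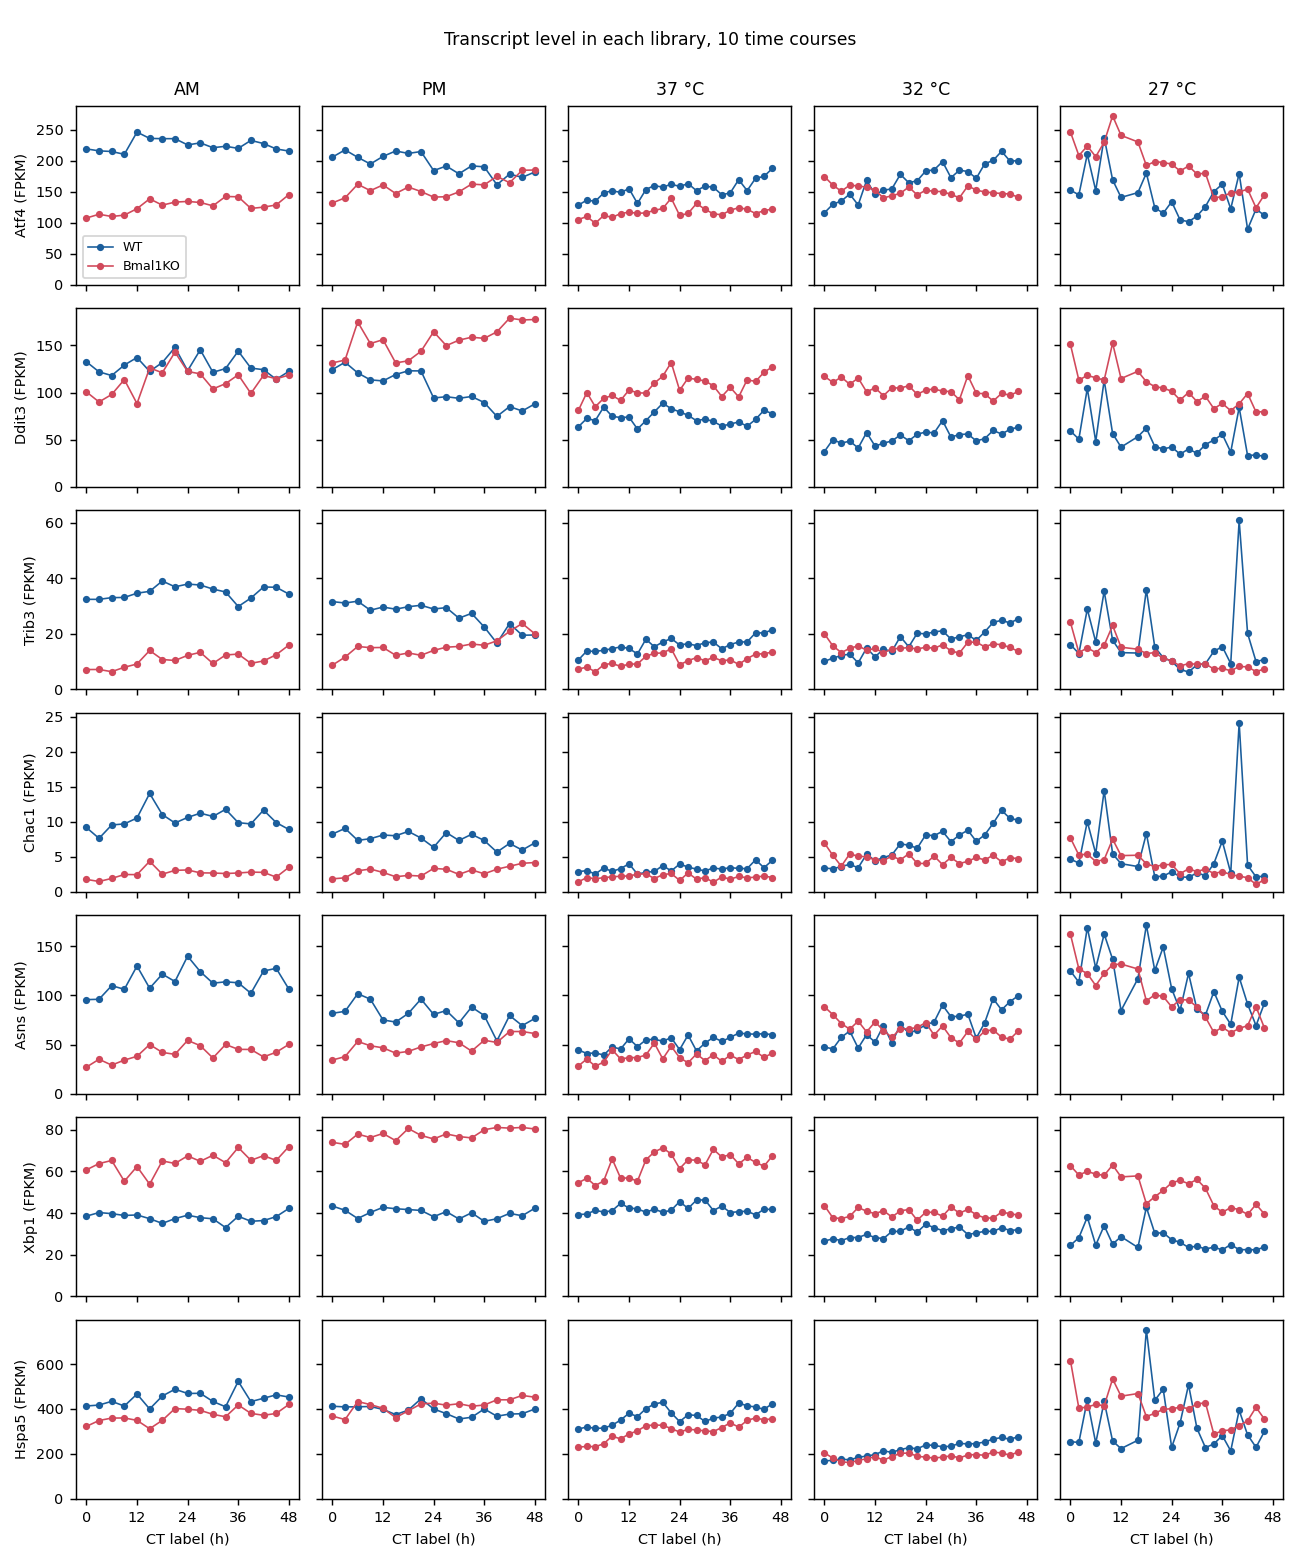
FPKM of 7 genes (rows) in every library against the CT label in hours, for AM, PM, 37, 32 and 27 °C (columns), with WT in blue and Bmal1-/- in red and 1 point per library. Trib3, Chac1 and Asns lie apart by genotype in AM, and WT at 27 °C has single high libraries, the highest of Trib3 being 60.8 FPKM at CT40.

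The wider list of ATF4 targets, which holds none of the 31 genes, had 4 of 35 tested genes called higher and 10 called lower in Bmal1-/- over AM and PM, with a median of -0.70. By the same rule, 7.01% of all genes were called higher and 7.53% lower. Among the lower genes were Cth, which makes cysteine, at -3.28 and the amino acid carrier Slc7a3 at -2.50. The 4 higher genes were Tnfrsf10b at 3.00, Bbc3 at 2.21, Ddit4 at 2.15 and Sesn2 at 1.51, the last 3 named after their values were seen. All 4 are also known as targets of p53, whose part was not tested. Of 20 cytosolic aminoacyl-tRNA synthetases, Iars alone was called (-1.43) and the median was -0.54. Of 37 other folding and export genes and 20 other degradation genes, 0 were called in either direction.

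At the controlled temperatures no target of ATF4 was called between the genotypes, and Ddit3 was called at 27 °C only. These courses were not tested against AM and PM. Ddit3 was the 1 gene called at 27 °C, higher in Bmal1-/- by 2.07-fold, where the rule called 6.38% of all genes higher. At 27 °C it lay at 32.3 to 113 FPKM in WT (median 44.9) and at 79.5 to 152 FPKM in Bmal1-/- (median 101), with a log2 difference of 1.05 ± 0.059 (SE, adjusted p = 6.33e-35). The ranges overlapped through the WT libraries at CT4, CT8 and CT40, described below. With CT24 and later only, the difference was 0.94 and no longer called. At 32 °C Ddit3 lay at 37.5 to 70.3 FPKM in WT and at 91.0 to 118 FPKM in Bmal1-/-, apart but under 2-fold (0.95). At 37 °C the difference was 0.52 and the ranges overlapped. At 37 °C, 0 of the 31 genes were called by limma with the fold limit (30 had an unadjusted p under 0.05), against 6.22% of all genes higher and 7.73% lower. At 32 °C, 0 were called (24 had an unadjusted p under 0.05), against 14.5% of all genes.

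The ranges of 9, 7 and 3 of the 31 genes were apart by genotype at 37, 32 and 27 °C, near or below the 29.8%, 37.1% and 28.8% of all genes. Edem1, Dnajc3 and P4hb were the 3 that were apart at all 3 temperatures, without reaching 2-fold. Edem1, which hands misfolded glycoproteins to degradation, had log2 differences of 0.75 at 37 °C, 0.65 at 32 °C and 0.80 at 27 °C. At 27 °C its WT libraries lay at 36.9 to 65.4 FPKM (median 50.1) and those of Bmal1-/- at 72.3 to 108 FPKM (median 91.1). Dnajc3, a co-chaperone of BiP, stood at 0.50, 0.60 and 0.77 in the same order. P4hb stood at 0.46, 0.30 and 0.42. Xbp1 itself was at 0.58, 0.37 and 0.92 and overlapped at 27 °C only among the 3 temperatures. Of the 5 targets of ATF4 and CHOP, Trib3 gave -0.59, -0.18 and -0.42 at 37, 32 and 27 °C, Chac1 -0.50, -0.41 and -0.24, and Asns -0.47, -0.09 and -0.21. Psat1 was at 0.13, 0.06 and 0.05, and Ppp1r15a at 0.08, 0.13 and -0.09, so these 2 did not share the direction of the others. Without the WT libraries at CT4, CT8, CT18 and CT40, the values at 27 °C were -0.17 for Trib3, 0.04 for Chac1 (adjusted p = 0.574 by limma) and -0.12 for Asns. Those libraries were chosen because members were high in them. Leaving them out lowers Trib3 and Chac1 in WT by that choice, so these values are a description. Adipocyte markers again differed, with 2 of 3 called higher in Bmal1-/- at 37 °C, 0 at 32 °C and 1 at 27 °C. Of the fibroblast list, Pdgfra had WT medians of 479, 360 and 224 FPKM at 37, 32 and 27 °C. In Bmal1-/- they were 129.5, 103 and 108.5 FPKM. Pdgfrb, Thy1, Lum and Fbn1 also had lower medians in Bmal1-/- at each temperature, and Col1a1, Col3a1, Vim and Dcn higher ones. At 32 °C Mlana, of the pigment and Schwann cell list, had medians of 16.9 FPKM in WT and 0.268 FPKM in Bmal1-/-. The part of these markers was not tested. Outside the 31 genes, Creb3l1 and Creb3l2, transmembrane factors related to ATF6, were called higher in Bmal1-/- at 27 °C (1.39 and 1.24).

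Between temperatures, chaperones and a disulfide isomerase were lower at 32 °C than at 37 °C in both genotypes, though by the rule none was called in both. Asns was higher at 27 °C. Among all genes tested, the median log2 difference of 27 against 37 °C was 0.207 in WT and 0.205 in Bmal1-/-, and that of 32 against 37 °C was 0.132 and 0.129, so each value below is to be read against that shift. Median-of-ratios scaling, which removes it, is given where it ends or makes a call. By the rule for levels, 27 against 37 °C called 2 of 31 genes in WT (13.7% of all) and 2 in Bmal1-/- (11.7%), and 32 against 37 °C called 1 in WT and 1 in Bmal1-/- (3.32% and 2.74%). The called genes are thus close to the background at 32 °C and below it at 27 °C.

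Calr encodes calreticulin, a lectin chaperone that folds glycoproteins. In WT it lay at 688.5 to 878 FPKM at 37 °C (median 809), at 303 to 529 FPKM at 32 °C (median 432) and at 319.8 to 549.6 FPKM at 27 °C (median 413). In Bmal1-/- it lay at 587 to 834 FPKM, 306 to 397 FPKM and 397 to 505 FPKM (medians 732, 348 and 446). Both lower temperatures were apart from 37 °C in both genotypes, and the order of the 2 lower ones differed between genotypes. The log2 difference of 32 against 37 °C was -0.95 in WT and -1.03 ± 0.032 in Bmal1-/- (SE, adjusted p = 1.18e-59), of which the second was called. Scaling moved the WT value to -1.10, past 2-fold. At 27 °C the differences were -0.97 in WT (-1.24 and called when scaled) and -0.69 in Bmal1-/-.

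Pdia4, a disulfide isomerase, lay in WT at 148 to 173 FPKM at 37 °C (median 159), at 70.0 to 85.1 FPKM at 32 °C (median 78.4) and at 56.2 to 108 FPKM at 27 °C (median 78.3). Both lower temperatures were called in WT, at -1.01 ± 0.026 for 32 °C (SE, adjusted p = 3.13e-68) and -1.04 ± 0.026 for 27 °C (SE, adjusted p = 4.93e-70). In Bmal1-/- the values were -0.84 and -0.57, with ranges apart from 37 °C in both. Hspa5 had medians of 373 FPKM at 37 °C and 229 FPKM at 32 °C in WT, and 308 and 188 FPKM in Bmal1-/-, at -0.73 and -0.68 with no overlap. Hsp90b1, the chaperone GRP94, was at -0.78 in WT and -0.93 in Bmal1-/-, the latter called when scaled (-1.08). At 32 °C, 9 of 11 chaperones in WT and 8 in Bmal1-/- were lower than at 37 °C at an adjusted p under 0.05, with medians of -0.41 and -0.26, where 24.6% and 22.1% of all genes were lower by that test.

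At 27 °C, Hyou1 and Creld2, both chaperone genes of the endoplasmic reticulum, were lower than at 37 °C at -0.67 and -0.35 in WT and at -0.35 and -0.24 in Bmal1-/-, under 2-fold, while Hspa5 was at -0.26 in WT and 0.38 in Bmal1-/-. Dnajb9, a co-chaperone induced through XBP1, was called higher at 27 °C in Bmal1-/-. It lay there at 7.71 to 13.4 FPKM at 37 °C (median 9.96) and at 17.1 to 31.6 FPKM at 27 °C (median 23.4), a difference of 1.11 ± 0.049 (SE, adjusted p = 2.16e-44). With scaling it was 0.86 and no longer called. In WT it was 0.59. Asns was at 39.4 to 61.6 FPKM at 37 °C (median 54.1) and at 69.3 to 171 FPKM at 27 °C (median 113) in WT. In Bmal1-/- it was at 28.03 to 51.5 FPKM (median 36.8) and 62.0 to 162 FPKM (median 95.2). No library of 27 °C overlapped with 37 °C in either genotype, and the log2 differences were 1.03 ± 0.056 in WT (SE, adjusted p = 1.54e-36) and 1.30 ± 0.056 in Bmal1-/- (SE, adjusted p = 9.08e-46). The WT value fell under 2-fold when scaled (0.77), while that of Bmal1-/- did not (1.04).

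Chac1, below 5 FPKM at 37 °C, was at 0.82 in WT and 0.91 in Bmal1-/- at 32 °C. Of 20 other degradation genes, 5 were called higher at 27 °C in WT and 6 in Bmal1-/-, where the rule called 8.42% and 7.63% of all genes higher. They include the ubiquitin-conjugating enzyme Ube2j2 (1.36 and 1.40) and the lectin Erlec1 (1.16 and 1.38). With scaling 2 and 3 of the 20 were called, and Erlec1 was at 0.89 in WT and no longer called. Markers of macrophages, adipocytes and fibroblasts moved as well. At 27 °C the macrophage list had 1 of 2 tested genes called higher in each genotype. The fibroblast list had 3 of 10 called lower in WT and 2 in Bmal1-/-. From 37 to 27 °C the median of Cd68, a macrophage marker, went from 2.37 to 30.4 FPKM in WT. That of Lyz2, of the same list, went the other way, from 5.10 to 1.51 FPKM. The adipocyte marker Lpl fell from 75.8 to 5.43 FPKM in WT and from 153 to 27.5 FPKM in Bmal1-/-. Pparg, of the same list, rose in WT from 16.05 to 23.96 FPKM. Their part was not tested. The difference between the genotypes in 27 against 37 °C was tested as an interaction, which called 0 of the 31 genes at 2-fold against 4.44% of all genes (21 had an unadjusted p under 0.05). At an adjusted p under 0.05 alone, 17 members were higher and 3 lower, led by Atf4 at 0.81 ± 0.0585 (SE, adjusted p = 1.53e-25) and Hspa5 at 0.64, while 34.3% of all genes were higher and 34.5% lower by that test.

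**Figure D2:**
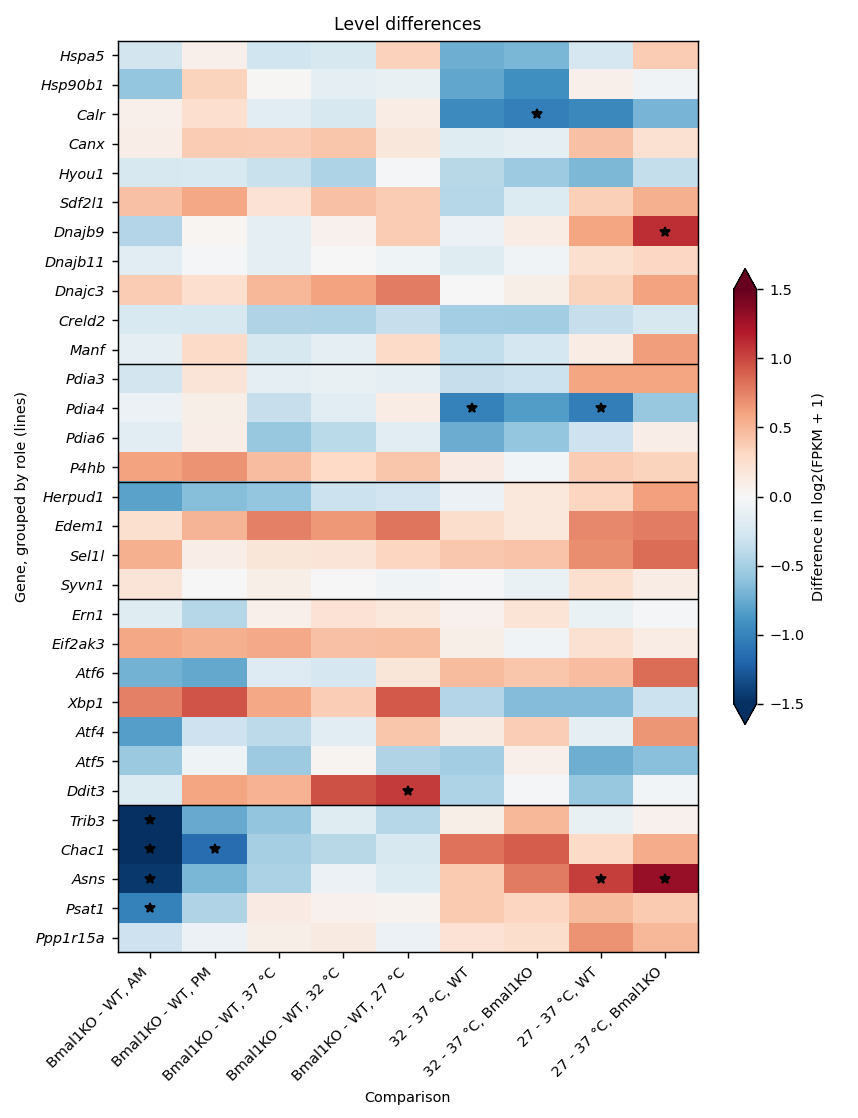
Log2 differences of 31 genes (rows, by role) in 9 comparisons (columns), coloured from blue (lower in the first group named) to red (higher), with a star where a difference was called. Stars for lower levels fall at Trib3, Chac1, Asns and Psat1 in AM, at Chac1 in PM and at Calr and Pdia4 in the cooler courses.

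Within courses, Atf4 and several of its targets drifted with time, upward in WT at 32 °C and downward in both genotypes at 27 °C. A trend was called at an adjusted p under 0.05 by limma and at least 1.5-fold over 48 h of the fitted line. At 32 °C, 8 of 31 genes rose in WT (2.84% of all genes did) and 0 were called in Bmal1-/- (1.93% in either direction), where 10 had an unadjusted p under 0.05. At 27 °C, 8 fell in WT (5.03% of all) and 6 fell in Bmal1-/- (2.59%). At 37 °C, 0 were called in WT (5.2%), where 15 had an unadjusted p under 0.05, and Hsp90b1 rose in Bmal1-/- by 0.79 ± 0.15 (SE; 2.0% of all genes rose).

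Chac1 in WT at 32 °C lay at 3.25 to 11.6 FPKM (median 6.98), low in the first libraries and high in the last, and rose by 1.54 ± 0.26 on the log2 scale (SE, adjusted p = 5.88e-07). Trib3 lay at 9.50 to 25.5 FPKM (median 18.5) and rose by 1.23 ± 0.24 (SE, adjusted p = 1.49e-05). Asns lay at 45.6 to 99.7 FPKM (median 69.8) and rose by 1.00 ± 0.15 (SE, adjusted p = 1.24e-08). All 3 moved with Atf4, which rose by 0.72, and with the chaperone genes Calr (0.82), Hspa5 (0.72), Hyou1 (0.67) and Creld2 (0.66). In Bmal1-/- at 32 °C the same genes gave -0.21 (Chac1), -0.03 (Trib3), -0.41 (Asns) and -0.13 (Atf4). The difference between the genotypes' trends, a comparison added after values had been seen, was called lower in Bmal1-/- for 7 genes against 2.08% of all genes. These were Chac1 (-1.76 ± 0.37 SE, adjusted p = 0.000196), Asns (-1.41), Trib3 (-1.26), Psat1 (-0.93), Atf4 (-0.85), Ddit3 (-0.71) and Calr (-0.61).

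At 27 °C the same targets went the other way. Trib3 fell by 1.12 ± 0.25 in WT (SE, adjusted p = 0.000117) and by 1.65 ± 0.25 in Bmal1-/- (SE, adjusted p = 4.9e-08), where it lay at 6.37 to 24.1 FPKM (median 10.3). Chac1 fell by 1.03 in WT and by 1.64 in Bmal1-/-, where it lay at 1.03 to 7.66 FPKM (median 3.57). Asns fell by 0.92 and 1.23. The transcripts of Atf4 (by 0.72 and 0.92) and Ddit3 (by 0.94 and 0.84) fell as well. Whether the fall of the targets follows from them was not tested. In WT the fall also took in Atf5, a relative of ATF4 (-0.80), Psat1 (-0.75) and Pdia4 (-0.61), and in Bmal1-/- Herpud1 (-0.65). No difference in trend between the genotypes was called among the 31 genes at 27 °C (5.31% of all genes), where 7 had an unadjusted p under 0.05. Chac1 was at -0.61 and Trib3 at -0.53 for that difference.

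In AM and PM, Trib3 rose in Bmal1-/- over both courses by 0.80 ± 0.11 (SE, adjusted p = 1.83e-07), against 0.413% of all genes that rose, and 0 genes were called in WT (2.77%), where 9 had an unadjusted p under 0.05. In PM alone, Ddit3 fell by 0.75 and Trib3 by 0.69 in WT (2.22% of all genes fell), while Trib3 rose by 0.89, Chac1 by 0.65 and Asns by 0.64 in Bmal1-/- (0.406% rose). The difference between genotypes over both courses was called higher in Bmal1-/- for 5 genes against 1.77% of all genes. Trib3 was at 1.13 ± 0.16 (SE, adjusted p = 1.68e-07), Atf5 at 0.80, Ddit3 at 0.66, Asns at 0.63 and Chac1 at 0.60. Without the shallowest library, the WT library of AM at CT36, Chac1 was at 0.580 and under the fold limit. At 37 °C, Psat1 was the 1 gene called for a difference in trend (-0.75, against 2.52% lower among all genes).

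Of the wider lists, called trends were mainly among the other ATF4 targets. These lists too were chosen with earlier results of these data known, so their counts are a description. In WT at 32 °C, where 2.84% of all genes rose, 16 of 34 other ATF4 targets rose and 1 fell. Among the rising genes were the secreted factor Fgf21 (1.69) and the serine enzyme Psph (1.20), and 4 of 20 aminoacyl-tRNA synthetases rose. In WT at 27 °C, where 5.03% of all genes fell, 14 of the 34 fell and 0 rose. Among these were Shmt2 (-1.16) and Pck2 (-1.11), and 4 of the synthetases fell. In Bmal1-/- at 27 °C, where 2.59% of all genes fell, 11 other ATF4 targets fell and 1 rose. Of 36 other folding and export genes, Fkbp11 alone rose in WT at 32 °C (0.76), Serpinh1 alone fell in WT at 27 °C (-0.71) and 0 were called in Bmal1-/- at 27 °C, and of 20 other degradation genes and 13 other sensors and regulators 0 were called in these 3 courses. Adipocyte markers drifted in part with the courses, with 1 of 3 called higher over time in WT at 32 °C, 2 higher in WT at 27 °C and 1 lower in Bmal1-/- at 27 °C, and their part was not tested.

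**Figure D3:**
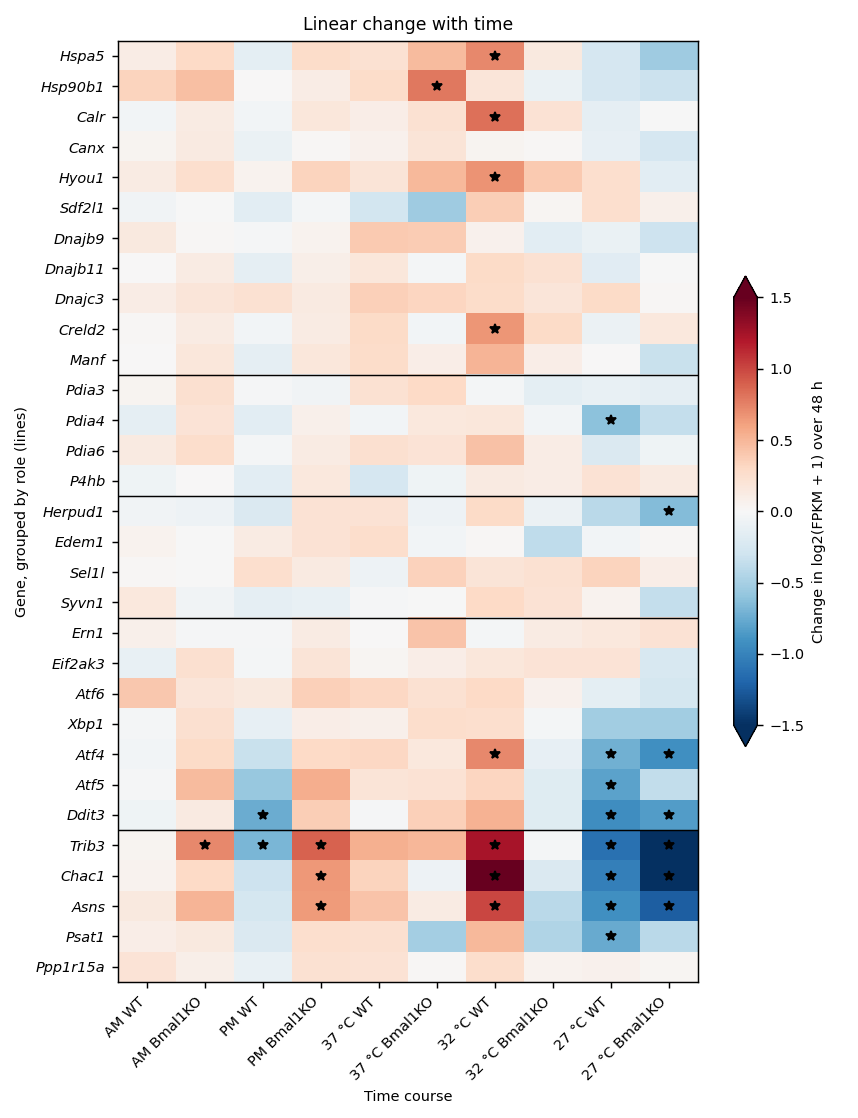
Fitted log2 change over 48 h of 31 genes (rows, by role) in 10 courses (columns), from blue (falling) to red (rising), with a star where the change was called in that course. Trib3, Chac1 and Asns are red in WT at 32 °C, up to 1.54 for Chac1, and blue in both genotypes at 27 °C, down to -1.65 for Trib3.

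The WT course at 27 °C held single libraries in which many of these genes were high at once. A gene was counted as high where it reached 1.5 times its course median, which 5 genes did at CT4, 6 at CT8, 7 at CT18 and 5 at CT40, where 3.98%, 3.22%, 2.48% and 2.40% of all genes did. The 4 libraries are not neighbours in time, and Trib3 and Chac1 were lower in the libraries beside each of them. At CT28, 4 genes were high, all of them chaperones (Hspa5, Hyou1, Sdf2l1 and Manf), against 2.07% of all genes. In Bmal1-/- at 27 °C, 5 genes were high at CT0 (2.85%) and 3 at CT10 (Ddit3, Trib3 and Chac1, against 2.74%). No library of the courses other than those at 27 °C had more than 1.

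Trib3 had a course median of 13.2 FPKM in WT at 27 °C and stood at 28.9, 35.4, 35.9 and 60.8 FPKM at CT4, CT8, CT18 and CT40. Chac1, with a median of 3.78 FPKM, stood at 10.0, 14.4, 8.29 and 24.1 FPKM in the same libraries. These were the only genes among the 31 that were high in all 4 libraries. Ddit3 (median 44.9 FPKM) was at 104.5 FPKM at CT4, 113 FPKM at CT8 and 84.3 FPKM at CT40. Hspa5 (median 281 FPKM) was at 441, 434 and 754 FPKM at CT4, CT8 and CT18 and at 508 FPKM at CT28. It was also high in the libraries that follow CT18, at 438.5 FPKM at CT20 and 488.3 FPKM at CT22. Both branches were high at CT18, which held the highest Hspa5, Sdf2l1 and Manf of the course and also the highest Asns (171.2 FPKM), Psat1 (151.8 FPKM) and Atf5 (215.7 FPKM). CT40 held the highest Trib3, Chac1, Herpud1 (141.4 FPKM) and Ppp1r15a (41.3 FPKM).

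Averaged over each role as a log2 deviation from the course median, the 5 ATF4 and CHOP targets were at 0.73, 0.89, 0.79 and 1.08 in those 4 libraries and at -0.34 at CT28. The 11 chaperones were at 0.19, 0.21, 0.56 and 0.22, and at 0.28 at CT28. Of 33 other ATF4 targets, 12, 12, 15 and 8 reached 1.5 times their median at CT4, CT8, CT18 and CT40, and 1 did at CT28, the amino acid carrier Slc7a3 (named after its value was seen). None of 20 other degradation genes did so in any of these 5 libraries. Estimated depth was 25.1, 27.1, 24.3 and 23.1 M reads in the 4 libraries, within the 18.3 to 30.1 M reads of the course. The summed macrophage markers were at 24.9 to 35.6 FPKM in the 5 libraries and 29.2 to 41.4 FPKM in the other 18, and the summed adipocyte markers at 23.5 to 34.3 and 21.8 to 39.2 FPKM.

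Without the 4 libraries, the WT trends at 27 °C were -0.78 for Trib3 and -0.74 for Chac1, still called, while Atf4 (-0.55) and Pdia4 (-0.49) fell under the fold limit. Hspa5 went from -0.25 to 0.14, neither being called. The difference between the genotypes' trends at 27 °C was then called for Chac1 (-0.90), Trib3 (-0.87) and Hspa5 (-0.68). The genotype difference of Ddit3 at 27 °C was 1.21, and that of Asns between 27 and 37 °C in WT was 0.95, under the limit. The 4 libraries were chosen because members were high in them, while the Bmal1-/- library at CT0, also with 5 high, was kept. Calls made without the 4 libraries therefore rest in part on the values that chose them. No share of all genes is given for those calls.

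**Figure D4:**
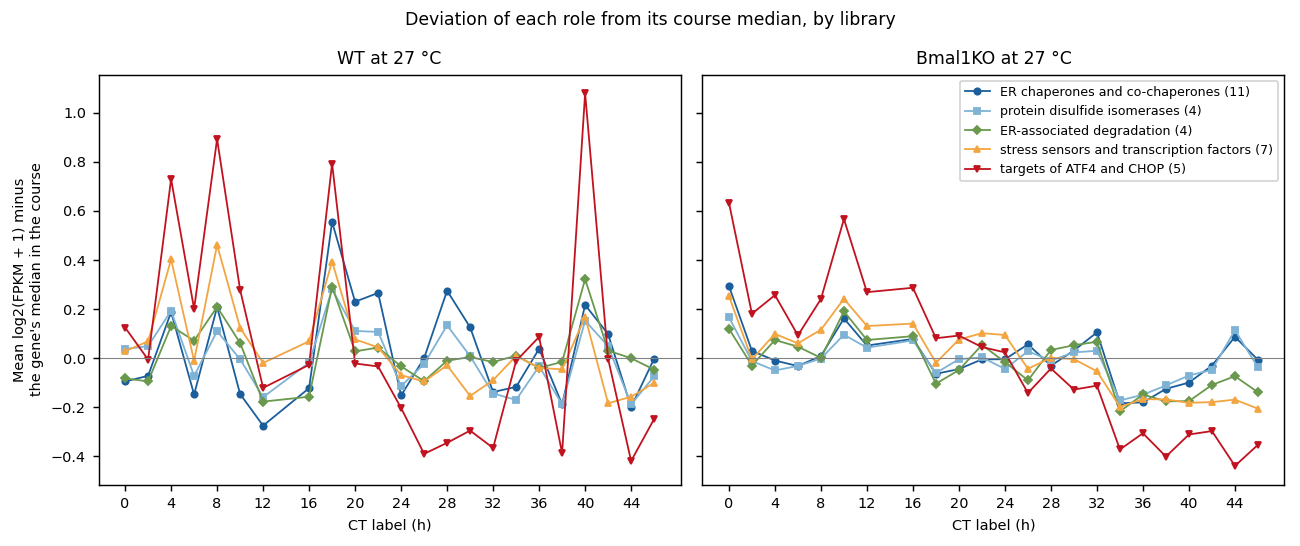
Mean log2 deviation from the course median for each of 5 roles (lines) against the CT label in hours at 27 °C, WT and Bmal1-/- in separate panels. In WT the targets of ATF4 and CHOP peak at CT4, CT8, CT18 and CT40, where they reach 1.08, and the chaperones peak at CT18 and CT28.

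Rhythms of 24 h were called for at most 3 of these genes in a course, and were small outside 1 course. Of all genes, 0.253 to 9.85% were called by course. An F test on a cosine and a sine at 24 h, beside the linear trend, called 12 gene and course pairs over the 10 courses. In WT at 27 °C, Trib3 (amplitude 0.56 on the log2 scale, peak at 15.4 h), Chac1 (0.51, 13.3 h) and Atf4 (0.21, 12.7 h) were called, against 2.15% of all genes. Without the 4 libraries their amplitudes were 0.37, 0.31 and 0.16, and all 3 were still called, now with Hspa5 and Pdia4. Those libraries were chosen on the values of members, so the calls without them are a description. In WT at 37 °C, Dnajc3 (0.098, peak at 16.9 h) and Pdia3 (0.11, 14.8 h) were called, against 4.92%, and Dnajc3 was the 1 gene called in Bmal1-/- at 32 °C (0.077, 17.5 h, against 2.06%). P4hb was called in Bmal1-/- at 37 °C (0.12, 17.5 h, against 8.46%) and Atf5 in Bmal1-/- at 27 °C (0.15, 18.3 h, against 9.85%). In PM, Psat1 (0.13, 3.7 h) and Hyou1 (0.13, 4.5 h) were called in WT (5.61%) and Sel1l (0.16, 5.4 h) in Bmal1-/- (3.02%), and in AM Ern1 was called in WT (0.15, 5.0 h, against 3.85%). None of the 31 genes was called in Bmal1-/- of AM (3.4%) or in WT at 32 °C (0.253%), with 1 gene in each at an unadjusted p under 0.05. Whether any rhythm differed between genotypes was not tested.

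Some of these genes varied together around their fitted courses, within a branch and between branches. Residuals of 5 pairs were correlated over the 142 libraries of the temperature courses and over the 68 of AM and PM, which makes 10 relations with permutation p-values (two-sided) adjusted over them. Libraries of a course may share cells or cultures and follow each other in time, so they cannot be taken as independent and these values are a description. Ddit3 and Trib3 had r = 0.81 (rho = 0.67) in the temperature courses and r = 0.53 (rho = 0.50) in AM and PM. Asns and Psat1 had r = 0.69 (rho = 0.66) and r = 0.45 (rho = 0.48). Between the branches, Hspa5 and Asns had r = 0.63 (rho = 0.53) and r = 0.42 (rho = 0.50). Within the chaperones, Hspa5 and Sdf2l1 had r = 0.79 (rho = 0.57) and r = 0.24 (rho = 0.25), and Hspa5 and Hsp90b1 r = 0.46 (rho = 0.37) and r = 0.22 (rho = 0.25). The permutation p for each r and rho in the temperature courses was 1e-05, the smallest that 100000 permutations can give (2e-05 adjusted). In AM and PM the permutation p for r was 1e-05, 0.00016, 0.00036, 0.0445 and 0.0748 in the order of the pairs above (2e-05, 0.000229, 0.00045, 0.0494 and 0.0748 adjusted). For rho it was 4e-05, 4e-05, 3e-05, 0.0413 and 0.0409 (5e-05, 5e-05, 5e-05, 0.0413 and 0.0413 adjusted), so the last pair passed by rho and not by r.

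With the 2 libraries farthest from the median of the first gene left out, r was 0.73 for Ddit3 and Trib3, 0.66 for Asns and Psat1, 0.61 for Hspa5 and Asns, 0.72 for Hspa5 and Sdf2l1 and 0.49 for Hspa5 and Hsp90b1 in the temperature courses. In AM and PM it was 0.52, 0.47, 0.48, 0.30 and 0.27 in the same order. Without the WT course at 27 °C, Hspa5 and Sdf2l1 were at 0.46 and Hspa5 and Hsp90b1 at 0.31, so these chaperone pairs rest in part on that course, while Ddit3 and Trib3 were at 0.74.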

How the data were processed

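Values are FPKM per gene and library, as deposited by the authors. Per the submitters' processing notes, the tools were TopHat, TopHat2 2.1.0 and Cuffdiff, with GRCm38. Libraries were poly(A)-selected, made with a stranded kit and read single-end, per the labels' protocols. The sources used here do not state whether strand was used in counting.

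Symbols came from the GENCODE vM21 annotation (47217 of 47631 identifiers matched). Of 212 libraries, 210 were used: 68 of AM and PM (13307 genes tested) and 142 of the temperature courses (13031), each set fitted by itself. With limma 3.58.1 in R 4.3.3, log2(FPKM + 1) was fitted with an intercept, a linear time term and a 24 h cosine and sine per course, over genes whose mean reached 1 FPKM. Adjusted p-values are limma's with Benjamini-Hochberg adjustment over all genes tested. Fold changes are on the log2(FPKM + 1) scale and understate the change of low genes. Depth was estimated from low FPKM values of 1357 genes, of which 94.9% were whole reads to within 0.15, and no count test was run. The fits were tested on simulated data.

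The members and gene lists were chosen with earlier results of these data known. Every member of at least 1 FPKM could be named, and of each other list up to 3 genes with the largest called difference. Correlations used scipy 1.17.1. Alternatives were another pseudocount, no filter on low values, median-of-ratios scaling, the time point as a block, later time points only, other fold limits and models, and left-out libraries.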

Additional observations from a re-analysis of the deposited data

Results flagged for a closer look

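The time trend differed between the genotypes for several genes, by a test of the difference itself (log2 change over 48 h, Bmal1-/- minus WT, limma with adjusted p under 0.05 and at least 1.5-fold). In AM and PM the difference was 1.13 for Trib3, 0.803 for Atf5, 0.661 for Ddit3, 0.633 for Asns and 0.599 for Chac1. At 32 °C it had the opposite sign: -1.76 for Chac1, -1.41 for Asns, -1.26 for Trib3, -0.928 for Psat1, -0.847 for Atf4, -0.713 for Ddit3 and -0.611 for Calr. At 37 °C it was -0.747 for Psat1. Each temperature and genotype had 1 course, so a difference between genotypes cannot be told apart from a difference between cultures.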

How the results depend on the processing

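No result changed sign under the alternatives where it was called. Counts of called members that moved by over 1.5 times were these. They are given without the share of all genes at the changed setting. The counts show only how the calls depend on the setting, not whether members differ from other genes. With a 1.5-fold limit on levels, genotype gave 8 in AM and PM (3 at 2-fold), 2 at 37 °C, 3 at 32 °C and 4 at 27 °C (0, 0 and 1). The same limit gave 11 in WT and 12 in Bmal1-/- for 27 against 37 °C (2 and 2), 6 and 8 for 32 against 37 °C (1 and 1), and 2 for the interaction (0). With CT24 and later only, genotype gave 1 at 37 °C and 0 at 27 °C, 27 against 37 °C gave 1 in Bmal1-/-, and 32 against 37 °C gave 0 in WT and 2 in Bmal1-/-. With median-of-ratios scaling, 27 against 37 °C gave 1 in Bmal1-/-, and 32 against 37 °C gave 2 in each genotype. A pseudocount of 0.1 FPKM gave 2 for 32 against 37 °C in Bmal1-/- and 3 trends in AM and PM (1). With no fold limit, trends numbered 22 in AM and PM (1) and 80 at the 3 temperatures (23), and differences in trend 26 (13). Without the WT libraries of 27 °C at CT4, CT8, CT18 and CT40, chosen after seeing the data, 19 rhythms were called (12). Without the WT course at 27 °C, r was 0.31 for Hspa5 and Hsp90b1 (0.46) and 0.46 for Hspa5 and Sdf2l1 (0.79).

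With the time point as a replicate block, counts of called members were the same: 3 for genotype in AM and PM, 0, 0 and 1 at 37, 32 and 27 °C, 2 and 1 for 27 and 32 against 37 °C in each genotype, and 0 for the interaction. The time labels share only a number between courses, and the block gives no trends or rhythms. Of 651 results, 651 were the same without the filter on low values. Depth limits Chac1, Ern1 and Atf6 most, the 3 genes of lowest mean FPKM.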
